A study of Mus musculus with 2 samples.

Results

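The genes described here are the 10 with the tallest open promoters in mouse calf muscle: Dynlt1b, Hjurp, Fbh1, Nup107, Add3, Glo1, Hnrnpc, Bahcc1, Tle4 and Ing2. They are 10 of 21851 protein-coding genes of the GENCODE M21 annotation on mm10. A gene counted as open in a library if a peak of the shorter deposited list lay within 500 bp of one of its transcription start sites, which held in both libraries for 11849 genes (54.2%). Each such gene took the value of its highest peak there, and genes were ordered by the lower of their percentiles among all peaks of each library. In a single library, promoters of other genes stood above some of the 10. The genes were thus chosen by their promoter peak values in these libraries, which are given as a description, with no test. The data are DNase-seq libraries of the gastrocnemius, the large calf muscle, from 2 male B6CASTF1/J mice aged 36 days. These mice are hybrids of the C57BL/6J and CAST/EiJ strains, and no treatment is given in the labels. Both animals form 1 group with 1 library each, called replicate 1 and replicate 2 here, so no group was compared with another. Whole tissue was used, and the cell types that gave the signal cannot be told apart.

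DNase I cuts DNA where nucleosomes are displaced, and active promoters are among the most readily cut stretches of a genome. Within such a stretch a bound protein shields a few bases, and the shielded bases appear as a footprint in dense cleavage. Promoters rich in GC boxes and CCAAT boxes, which bind SP/KLF factors and NFY, are typical of genes that many cell types use. The 10 genes have general roles: Hjurp loads the centromeric histone, Ing2 reads histone methylation and Tle4 is a transcriptional corepressor. Fbh1 encodes a DNA helicase, Hnrnpc an RNA-binding protein, Nup107 a scaffold protein of the nuclear pore, Dynlt1b a dynein light chain, Add3 an adducin of the membrane skeleton, and Glo1 the enzyme that starts methylglyoxal removal. Bahcc1 encodes a protein with a chromatin-binding BAH domain.

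The promoter stretches below show how much of these peaks lay in footprints. Each is the longest run of the peak part common to both libraries that lies in no annotated exon, read on the gene's strand from GRCm38.p6 (mm10) and kept to at most 300 bases next to the start site. Capitals mark bases inside a footprint of both libraries. Fbh1 has the largest shielded share of those shown, Add3 the most footprints, Nup107, Bahcc1 and Ing2 carry some of the motif matches named further on, and Hjurp has no shielded base in its run.
Hjurp (chr1:88277634-88277660, minus strand, 27 bases): ggcggaccctccctctcgtccctcccc
Fbh1 (chr2:11777583-11777740, minus strand, 158 bases): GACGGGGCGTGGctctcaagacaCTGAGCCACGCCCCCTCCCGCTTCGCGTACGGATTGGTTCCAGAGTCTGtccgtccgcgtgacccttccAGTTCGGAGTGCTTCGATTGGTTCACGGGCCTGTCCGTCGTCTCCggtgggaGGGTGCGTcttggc
Add3 (chr19:53142456-53142755, plus strand, 300 bases): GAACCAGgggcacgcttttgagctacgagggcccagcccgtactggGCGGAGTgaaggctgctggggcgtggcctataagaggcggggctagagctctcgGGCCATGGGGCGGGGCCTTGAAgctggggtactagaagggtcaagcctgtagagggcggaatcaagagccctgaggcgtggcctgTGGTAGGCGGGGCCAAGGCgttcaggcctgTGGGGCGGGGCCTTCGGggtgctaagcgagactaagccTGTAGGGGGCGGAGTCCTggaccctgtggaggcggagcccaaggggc
Nup107 (chr10:117792801-117792940, minus strand, 140 bases): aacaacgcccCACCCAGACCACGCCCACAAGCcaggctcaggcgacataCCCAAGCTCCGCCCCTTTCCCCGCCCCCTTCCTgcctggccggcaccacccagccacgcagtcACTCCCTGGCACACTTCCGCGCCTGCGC
Bahcc1 (chr11:120232681-120232880, plus strand, 200 bases): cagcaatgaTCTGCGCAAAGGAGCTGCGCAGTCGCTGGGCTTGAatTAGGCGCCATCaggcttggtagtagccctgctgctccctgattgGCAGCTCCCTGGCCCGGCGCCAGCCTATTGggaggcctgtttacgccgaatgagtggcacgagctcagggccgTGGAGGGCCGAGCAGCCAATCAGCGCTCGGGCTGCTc
Ing2 (chr8:47675159-47675280, minus strand, 122 bases): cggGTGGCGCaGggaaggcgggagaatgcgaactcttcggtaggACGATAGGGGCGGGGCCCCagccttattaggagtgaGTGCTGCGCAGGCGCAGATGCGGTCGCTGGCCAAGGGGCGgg

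The peak of Hjurp left only 27 bases between the exons of Hjurp and of the neighbouring gene. In Fbh1, 114 of 158 bases lay in footprints of both libraries, and in Bahcc1 112 of 200. In Add3 the share was lower, 90 of 300, spread over many short sites. The common part of the Glo1 peak lay wholly in annotated exons, so no stretch of it is shown.

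The highest promoter was that of Dynlt1b on chromosome 17 (gene at 6430112 to 6436296, plus strand). Its peak had a value of 42.3 in replicate 1 and 32.4 in replicate 2, which was 7.59 and 8.60 times the median promoter value of each library (5.57 and 3.77). These values are the deposited peak heights, whose scaling by depth is not given in the sources used here, so they were ranked within a library. Ratios between the libraries, given further on, carry any difference in scaling and are set beside the median ratio of all genes. Dynlt1b held place 2 among the 50760 peaks of replicate 1 and place 9 among the 49230 of replicate 2. One peak, on chromosome X (143482981 to 143483140) away from any annotated gene, stood higher in replicate 1, at 46.2. Of the 8 higher peaks of replicate 2, 6 lay over 500 bp from any annotated start site. The tallest of the 8, with a value of 89.7, was not among these 6.

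Among the genes that act on chromatin, Hjurp (chromosome 1, 88262471 to 88277633, minus strand) had values of 36.5 and 21.5. Its peak centre lay 7.5 bp upstream of the start site in both libraries. Bahcc1 (chromosome 11, 120232947 to 120292296, plus strand) had 31.6 in replicate 1 and 13.9 in replicate 2. It stood at place 7 among all peaks of the first library and place 54 in the second. The ratio of its values, 2.27, lay at percentile 94.9 of the ratios of all 11849 genes, whose median was 1.47. The other 9 genes had ratios from 1.3 to 1.7, so Bahcc1 was the gene on which the libraries differed most. With 1 library per animal, that difference has no replicate check.

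Tle4 (chromosome 19, 14448150 to 14598051, minus strand) had values of 20.8 and 14.6, with a peak centred 329.5 bp upstream of its start site in replicate 1. Ing2 (chromosome 8, 47667178 to 47675556, minus strand) had 20.8 and 14.0. Fbh1 (chromosome 2, 11742573 to 11777582, minus strand) had 25.1 and 15.3. These 3 genes sat within the narrow range that the lower ranks shared in replicate 2.

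Nup107 (chromosome 10, 117750621 to 117792705, minus strand) had values of 25.9 and 15.3. For Hnrnpc (chromosome 14, 52073377 to 52104028, minus strand) they were 21.3 and 14.9, and its peak lay 312.5 bp upstream of the nearest start site in replicate 1. Add3 (chromosome 19, 53140443 to 53247399, plus strand) had 22.2 and 15.4, and Glo1 (chromosome 17, 30584936 to 30626871, minus strand) had 21.8 and 14.8. Add3 has 11 annotated start sites, and its peak belonged to one inside the annotated gene, at 53142756. Glo1 has 3, and its peak also lay at one inside the annotated gene, at 30612659, not at the outer end at 30626871. Below Dynlt1b and Hjurp, the 8 other genes spanned only 13.9 to 15.4 in replicate 2, which is close to the genes that missed the list. Just inside stood Ing2 (20.8 and 14.0). Just outside stood Sde2 (24.1 and 13.2), Rragc (27.1 and 13) and Pop7 (20.4 and 14.3).

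**Figure D1:**
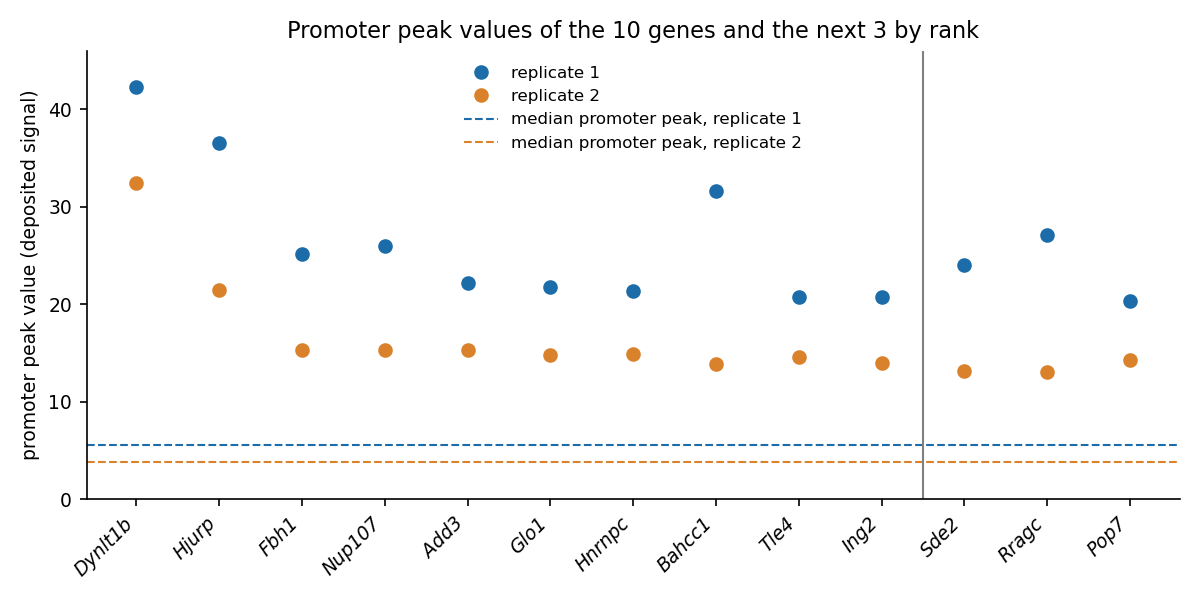
Promoter peak values (deposited signal, vertical axis) of the 10 genes and, right of the grey line, of the 3 genes next by rank, with 1 point per library and dashed lines at the median promoter value of each library. Dynlt1b and Hjurp are highest in both libraries, followed by Bahcc1 at 31.6 in replicate 1, while the other 8 lie between 13.9 and 15.4 in replicate 2, beside Sde2, Rragc and Pop7.

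Some of these peaks lay within 500 bp of an annotated start site of a neighbour. The start site of Trpm8, a cold-sensing ion channel gene on the opposite strand, lay inside the Hjurp peak at 88277661. Ankrd16 started 96 bp from the Fbh1 peak and the long noncoding RNA AA386476 51 bp from the Ing2 peak, both on the opposite strand. The signal of such a peak cannot be assigned to one gene of the pair. The other 7 genes shared their peak with no other annotated start site within 500 bp.

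The peaks were not wide. In replicate 1 they measured 160 to 460 bp with a median of 200 bp, the same as the median of all 11849 genes, and in replicate 2 they measured 140 to 420 bp with a median of 220 bp against 260 bp. Base composition was also ordinary. The median G+C content was 66.0% in replicate 1 against 66.4% for all genes, and the ratio of observed to expected CpG was 0.770 against 0.848. Add3 had the widest peak, 460 and 420 bp, and Dynlt1b and Nup107 the narrowest, 160 bp in replicate 1 and 140 bp in replicate 2.

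Dynlt1b differs from the other genes in having near copies with open promoters. A near copy was a place in the reference that matched at least 200 bp of the 1000 bp promoter window at 90% identity or more, or at least 50% of the transcript. Among all 10 genes 6 such places were found, of which 5 were copies of Dynlt1b and 1 a processed pseudogene of Hnrnpc, Gm12696 on chromosome 4. Of the 6 places, 4 held a peak in both libraries, and all 4 were copies of Dynlt1b on chromosome 17. Neither Gm12696 nor the processed pseudogene Dynlt1-ps1 on chromosome 6 held a peak in either library. With a looser rule, chosen after the values were seen, a single aligned stretch of at least 500 bp added a piece of Glo1 in Gm13443 on chromosome 2 and a piece of Bahcc1 inside Cyp4f15 on chromosome 17, and neither held a peak.

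The copies were lower than Dynlt1b in both libraries. Dynlt1a (6310544 to 6317692) had values of 15.7 and 11.1, Dynlt1c (6601199 to 6607900) 4.17 and 1.95, and Dynlt1f (6648938 to 6656411) 1.85 and 1.88. A partial copy at 6492788 to 6493221, inside the long noncoding RNA gene Gm26848, had 2.59 and 2.52. Dynlt1b stood 2.69 times above Dynlt1a in replicate 1 and 2.92 times in replicate 2. The values of all 4 copies summed to 24.3 and 17.5, so Dynlt1b alone was 1.74 and 1.86 times their sum.

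Because the copies are so alike, short reads from one can match another. Every 36-base word of each peak was looked up in the reference. In the Dynlt1b peak 66 of 125 words (52.8%) occurred once in replicate 1 and 66 of 145 (45.5%) in replicate 2, and the most repeated word occurred at 4 places. Among all genes whose peak could be scored, 96.2% in replicate 1 and 93.8% in replicate 2 had only unique words. Of the 10 genes, 9 and 8 did. The other exception was Glo1, with 100% in replicate 1 and 78.8% in replicate 2, where the peak reached 40 bp further and its words occurred at up to 2 places.

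The Dynlt1a peak held more unique sequence than that of Dynlt1b, 83.0% of words in both libraries. The Dynlt1c peak held 68.6% and 37.1%, and that of Dynlt1f 35.3% and 33.5%. The partial copy held 32.8% in both libraries. Dynlt1b stood above Dynlt1a at a lower unique share, while among the copies Dynlt1a had both the highest peak and the highest share. These shares also depend on where a peak was called, as the 2 values of Dynlt1c show. How the authors placed reads that match several sites is not given in the sources used here, and the part of this in the Dynlt1b height was not tested.

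**Figure D2:**
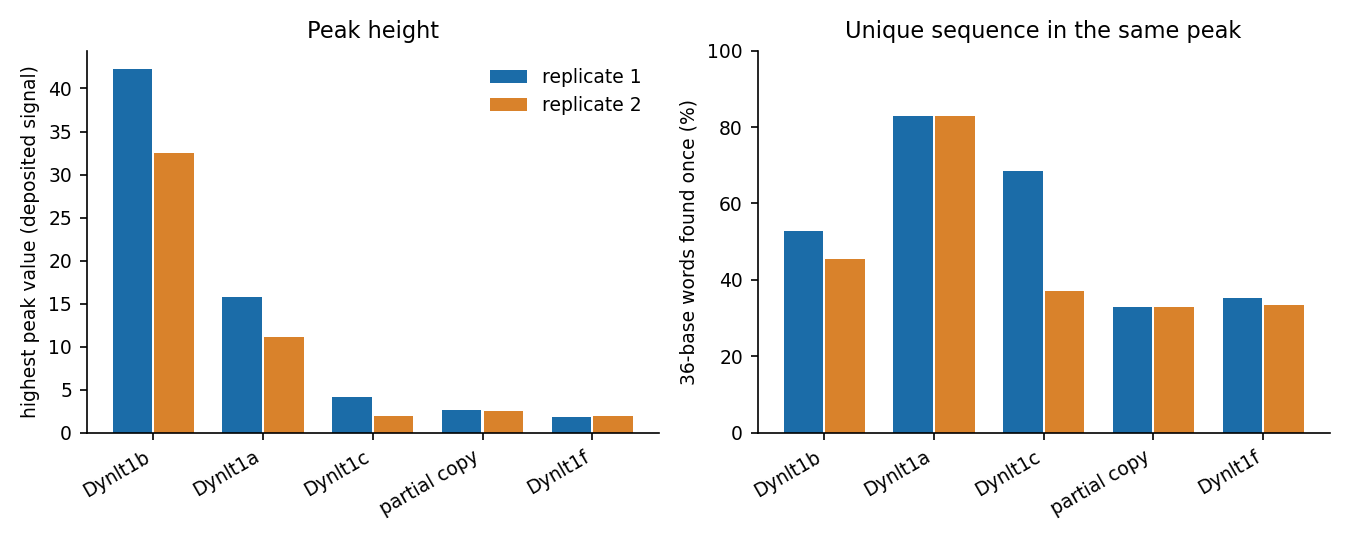
Highest peak value (deposited signal, left) and the percentage of 36-base words of that peak found once in the reference (right) for Dynlt1b and the 4 copies with a peak, with 1 bar per library. Dynlt1b is highest at 42.3 and 32.4, and Dynlt1a has the highest percentage of unique words, 83.0% in both libraries.

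Footprints filled more of these peaks than of a typical promoter. All 10 genes had a footprint in both libraries, as did 98.1% of the 11849 genes in replicate 1 and 99.3% in replicate 2. In replicate 1, 51 footprints lay in or across the 10 peaks and covered a median of 50.3% of the peak, against 23.8% for all 11849 genes. In replicate 2 it was 46 footprints and 54.5% against 27.7%. The number of footprints was ordinary, with a median of 4 per peak in both libraries against 4 and 5 for all genes, and it was their width that differed. The widest footprint of a peak had a median of 38 bp and 42.5 bp, against 21 bp and 25 bp.

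Single genes followed this with exceptions. In Dynlt1b footprints covered 70.6% and 61.1% of the peak, in Fbh1 60% and 70.9%, and in Nup107 57.8% and 65.7%. Of the 10 genes, 6 were at or above the 95th percentile in both libraries, as were 208 of the 11849 genes (1.76%). Hjurp was the exception despite its rank, with 19.0% and 26.7%, near the middle of all genes. Glo1 had 51.1% in replicate 1 and 30.5% in replicate 2. The widest single footprints were 55 bp, in Fbh1 in replicate 1 and in Hnrnpc in replicate 2.

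These shares rose with promoter height across the genome, so they are not particular to the 10 genes. The 100 genes ranked 11 to 110 had medians of 44.8% and 47.9%. With the remaining genes divided by rank into 5 equal parts, the highest part had 35.4% and 39.1% and the lowest 11.1% and 15%. The parts were cut by rank of peak value, so median height fell along the same order by construction. In replicate 1 it went from 19.3 at ranks 11 to 110 to 1.66 in the lowest part. Height and footprints draw on the same reads, and the part of height in the trend was not tested.

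**Figure D3:**
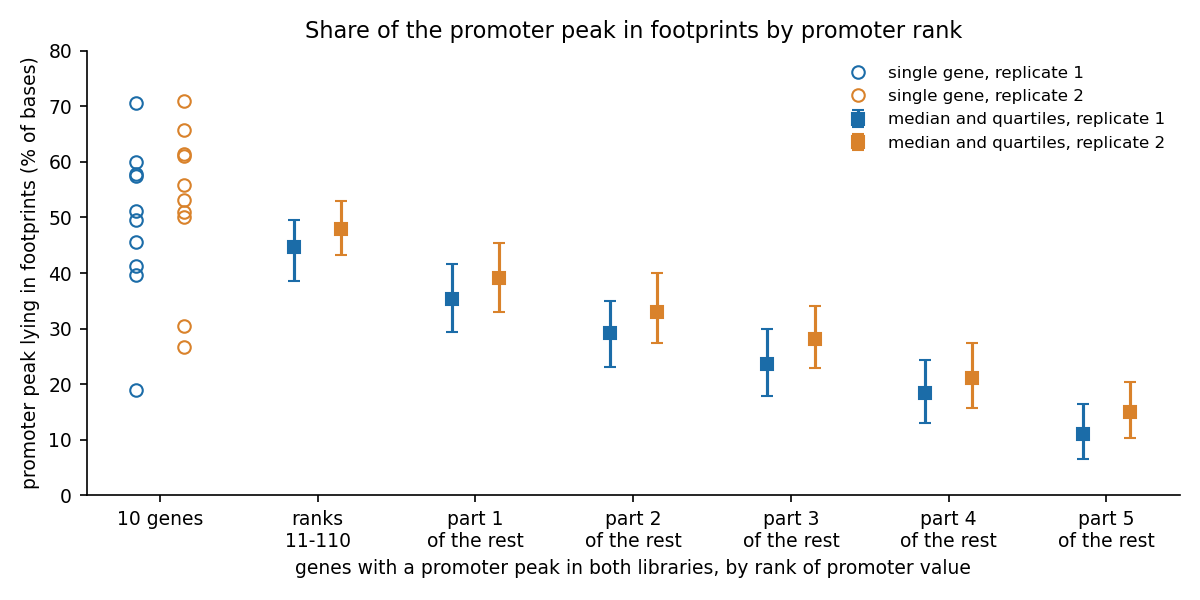
Percentage of promoter peak bases inside footprints (vertical axis) for each of the 10 genes (open circles), for the 100 genes ranked 11 to 110 and for 5 equal parts of the remaining genes by rank (squares with quartile bars), per library. The medians fall from 44.8% and 47.9% at ranks 11 to 110 to 11.1% and 15% in the lowest part, and the lowest circle of each library is Hjurp at 19.0% and 26.7%.

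Most footprints recurred in the second animal. Of the 51 footprints of replicate 1, 44 (86.3%) overlapped a footprint of replicate 2 by at least 1 base, against 75.5% of all promoter footprints. Of the 46 of replicate 2, 40 (87.0%) overlapped one of replicate 1, against 49.2%. At ranks 11 to 110 the shares were 91.3% and 82.7%, so among tall promoters the recurrence was ordinary. In Dynlt1b, Fbh1, Bahcc1 and Ing2 every footprint was found in both libraries. Glo1 recurred least, with 3 of 5 and 2 of 4. The 3 Dynlt1b footprints had nearly the same borders in both animals: the widest ran from 6430130 to 6430178 in replicate 1 and from 6430132 to 6430178 in replicate 2.

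Common promoter motifs were searched on both strands in 200 bp centred on the replicate 1 peak of each gene. SP/KLF (GGGCGGG) was found in 6 of the 10, namely Dynlt1b, Add3, Nup107, Glo1, Tle4 and Ing2, and in 49.7% of all 11849 genes. NFY (CCAATNA) was found in 5, Dynlt1b, Glo1, Hnrnpc, Bahcc1 and Tle4, against 16.1%. ETS (CCGGAAG, 17.6%) was found in Hjurp, and NRF1 (GCATGCGC, 5.71%) and the CTCF core (AGNNGGCGC, 12.7%) in Nup107. No match was found in the 10 genes for YY1 (AANATGGCG, 5.00%), CREB/ATF (TGACGTCA, 3.79%), USF (CACGTGAC, 4.14%), AP-1 (TGANTCA, 2.35%), the muscle factor MEF2 (CTATTTNTA, 0.430%), the E-box (CAGCTG, 11.1%), ZNF143 (ACTACAATT, 0.625%) and the TATA box (TATAAA, 2.57%). Fbh1 held none of the 13 motifs as spelled here. Its stretch shown above does hold the shorter CCAAT, read as ATTGG, in capitals, which the longer NFY string did not count. A match is a string of letters and not a shown binding site.

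The matches were set beside the footprints. Of the 19 matches, 14 touched a footprint of both libraries, 11 of them wholly inside, and 4 touched none. Footprints covered a median of 50.3% and 54.5% of these peaks, and the share for matches in all promoters was not computed, so these counts are a description. Ing2 held 3 SP/KLF matches, each touching a footprint of both libraries, and in Nup107 the NRF1 match read on both strands as 2 overlapping matches inside 1 footprint (117792756 to 117792776 in replicate 1). In Bahcc1 an NFY match (CCAATCA, 120232859 to 120232865) lay inside a footprint of both libraries. The NFY matches of Dynlt1b, Glo1 and Tle4 and the ETS match of Hjurp touched none.

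Cleavage above background was then followed beyond the promoter. The authors' table gives a false discovery rate (q) for runs of bases, and bases at q of 0.001 or less were counted over each gene body and 10 kb either side. Every base of all 20 promoter peaks met this, as in the median promoter of all genes (100%). Over the whole windows the 10 genes had a median of 2.11% of bases in replicate 1 and 2.87% in replicate 2, against 1.07% and 1.39% for all 21851 genes. The 21851 genes include those with no promoter peak, so this does not compare the 10 with open genes alone.

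Hjurp differed between the libraries. Over all chromosomes, 0.499% of bases were significant in replicate 1 and 0.668% in replicate 2. In replicate 1, 1.95% of its window was significant, all of it between 88277135 and 88277853, a span of 719 bp around the promoter. In replicate 2 it was 15.8%, percentile 99.1 of all genes, and the significant bases ran from 88264800 to 88278329, a span of 13.5 kb that takes in most of the gene. Exons and introns were covered alike in replicate 2, 36.5% and 31.4% of their bases, against 4.93% and 0.805% in replicate 1. The 10 kb beyond the 3′ end held no significant base in either library, and the 10 kb upstream held 3.61% in replicate 2.

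The same stretch showed as low, scattered peaks. Besides the promoter, Hjurp had 13 open regions in replicate 2 alone, 60 to 820 bp wide, with values from 0.486 to 0.854 (median 0.690), below the median peak of that library (1.33). Replicate 1 had 1 region of its own, beside the promoter (88277135 to 88277320, value 3.27). No region other than the promoter was open in both. The number in replicate 2 alone put Hjurp at percentile 99.1 of genes. Peaks that met end to end, such as 88264901 to 88265540 and 88265541 to 88266360, were counted as separate regions. The libraries differ here over the gene body, whereas the promoter ranked 3 and 12 among all peaks of replicate 1 and replicate 2. What sets the difference was not tested, and with 1 library per animal, animal and library cannot be told apart.

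Bahcc1 also spread in replicate 2. Significant bases took 2.91% of its window in replicate 1 and 8.66% in replicate 2 (percentiles 81.7 and 95.6). Joined over gaps of at most 1 kb, the stretch around its promoter was 1.56 kb long in replicate 1 and 7.78 kb in replicate 2 (120229855 to 120237638). The promoter values of Bahcc1 and Hjurp were lower in replicate 2, but so were those of all 10 genes. The median ratio of replicate 1 to replicate 2 over all genes was 1.47, against 2.27 for Bahcc1 and 1.70 for Hjurp (percentiles 94.9 and 68.4). Whether the lower values go with the longer stretches was not tested. Ing2 had a high share in both libraries, 6.96% and 9.29% (percentiles 98.2 and 96.2), and its stretch was 2.46 kb and 2.67 kb long. Such a share depends on the window, which was 28.4 kb for Ing2, 127 kb for Add3 and 170 kb for Tle4. By length the Ing2 stretch did not stand out: that of Add3 was 2.79 kb and 2.81 kb, and that of Tle4 2.07 kb and 2.25 kb.

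By share of the window, the other 7 genes lay below Hjurp, Bahcc1 and Ing2 in replicate 2. This did not hold in replicate 1, where Fbh1 stood above Bahcc1 and Hjurp. Fbh1 had 4.23% and 3.91% of its window, Hnrnpc 2.71% and 2.46%, and Glo1 2.27% and 3.28%. Nup107 had 1.59% and 2.01%, Dynlt1b 1.89% and 1.92%, Add3 1.46% and 1.83%, and Tle4 0.903% and 1.19%. Between the libraries these 7 genes differed less than Hjurp or Bahcc1.

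**Figure D4:**
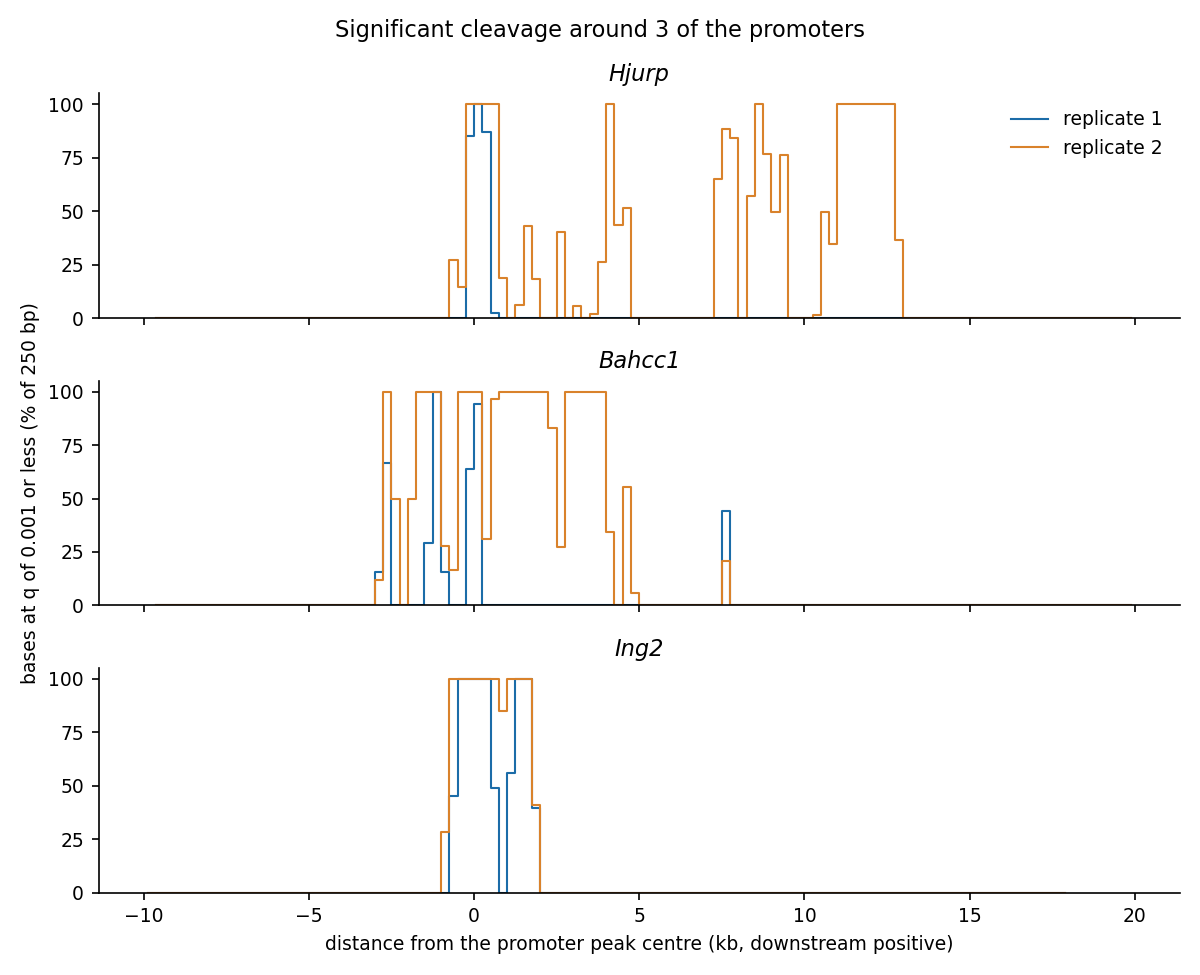
Percentage of bases at q of 0.001 or less in 250 bp steps (vertical axis) against distance from the promoter peak centre in kb, downstream positive, for Hjurp, Bahcc1 and Ing2, with 1 line per library. Replicate 2 has scattered significant bases over a 13.5 kb span at Hjurp and a stretch of 7.78 kb at Bahcc1, against 719 bp and 1.56 kb in replicate 1, while the Ing2 stretches are 2.46 kb and 2.67 kb.

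Beyond their promoters the 10 genes had about as many shared open regions as other genes, with a median of 1 against 1. In gene bodies and 10 kb either side, 15 regions were open in both libraries, 15 in replicate 1 alone and 25 in replicate 2 alone. Of the 10 genes, 6 had at least 1 shared region, against 71.5% of the genes open in both libraries. Bahcc1 held 8 of the 15, which put it at percentile 99.2 of genes. The tallest of them (15.1 and 10.6) lay 1.15 kb upstream at the start of 2900052L18Rik, and 6 of the 8 were intronic, the tallest of these 22.4 kb and 28.9 kb downstream (7.14 and 4.51, and 7.71 and 7.04).

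Several shared regions were promoters of neighbours. The region in the Nup107 window (11.5 and 5.25) was the promoter of Slc35e3, that in the Glo1 window (4.60 and 7.22) lay at Btbd9, and 1 of 2 in the Fbh1 window (3.62 and 2.58) was at Ankrd16. Ing2 had 1 within its own gene, 1.44 kb downstream of the peak, with 4.77 and 4.13. Dynlt1b had no other region in either library. Hjurp, Hnrnpc and Tle4 had none that both libraries shared.

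**Figure D5:**
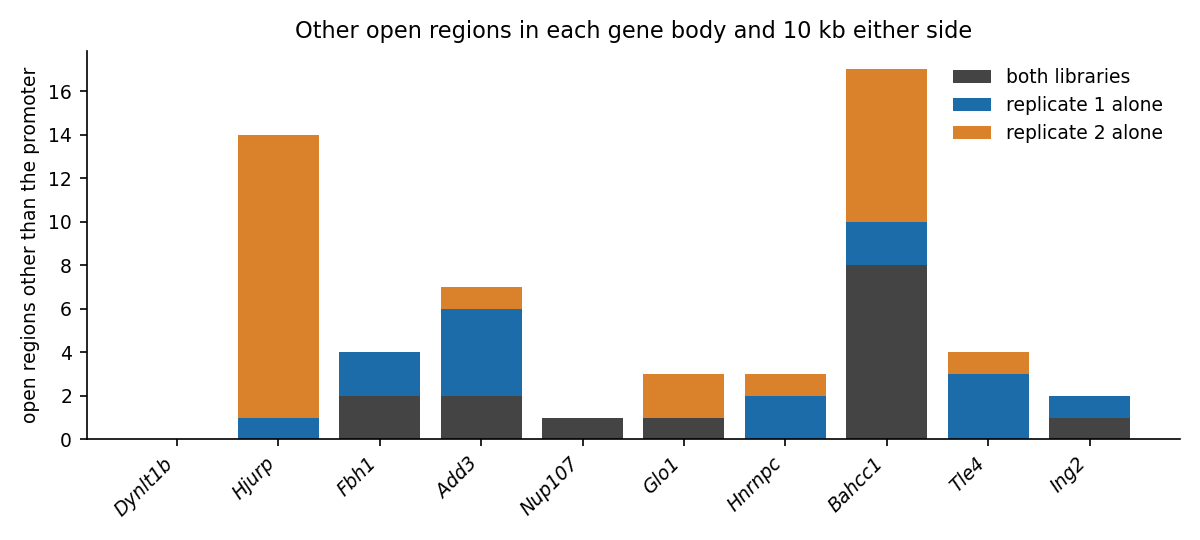
Number of open regions other than the promoter in each gene body and 10 kb either side (vertical axis), stacked by whether both libraries or 1 alone held them. Bahcc1 holds 8 of the 15 shared regions, and 13 of the 14 at Hjurp are in replicate 2 alone.

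Relatives and partners of the 10 genes were mostly open too. Of 64 genes in 10 lists, 59 (92.2%) had a promoter peak in both libraries, against 54.2% of all 21851 protein-coding genes. The genes called highest here are so by the lower of their percentiles in both libraries, and others of a list can be higher in a single library. All 13 dynein chain genes had a promoter peak in both libraries, with Dynlt1a (15.7 and 11.1) and Dynlrb1 (13.7 and 13.1) highest. Dynlt1a, Dynlt1c and Dynlt1f among them are the near copies described above, whose peaks held repeated words. All 12 hnRNP genes were open in both libraries too, with Hnrnpr (14.9 and 9.74) and Hnrnpa2b1 (12.8 and 10.3) highest. All 6 genes of centromeric histone loading were open, but low beside Hjurp, with Cenpc1 (10.7 and 5.74) and Mis18a (7.20 and 5.47) highest. Of the 9 other Y complex nucleoporins 8 were open, with Nup133 (14.0 and 9.75) and Ahctf1 (12.6 and 8.26) highest and no peak at Nup160.

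Of the 4 other Ing genes all were open, with Ing5 (16.4 and 12) and Ing3 (12 and 7.43) highest, and of the 5 other Tle genes 4, with Tle1 (16.9 and 8.14) and Tle3 (11.6 and 5.91) highest and no peak at Tle2. Both Bahcc1 relatives were open, Tnrc18 at 16 and 11.8 and Bahd1 at 14.3 and 6.11. So were the 4 Fbh1 partners, with Rbx1 (15.2 and 9.98) and Skp1a (6.15 and 7.07) highest. Among adducins and spectrins 4 of 6 were open in both, with Sptan1 (12 and 6.55) and Add1 (11.4 and 6.30) highest. Among 3 glyoxalase genes Hagh (8.81 and 5.68) and Glod4 (5.78 and 4.51) were open and Glod5 was not.

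In every list the 10 genes stood above their relatives in both libraries. For Hjurp the margin was wide (36.5 against 10.7 for Cenpc1 in replicate 1), and for Ing2 it was narrow (14.0 against 12 for Ing5 in replicate 2). That order follows from the choice of the 10 genes. As a check of the tissue, 7 of 8 muscle markers had a promoter peak in both libraries and 1, Tnnt3, in replicate 1 alone. Of 9 markers of liver, immune and nerve cells, 0 had one in either. Among all protein-coding genes 54.2% had a promoter peak in both. The highest muscle marker, Mylpf, a fast myosin light chain, had values of 6.51 and 3.39, below all 10 genes.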

How the data were processed

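DNase-seq libraries of the gastrocnemius of 2 mice were used, 1 per animal, as 1 group with no comparison between groups and no p-value of its own. The lists hold mm10 positions, per the labels, and 0 peaks or footprints ran past a chromosome end of GRCm38.p6. The authors deposited, per library, 2 peak lists with a signal value per peak. Signal values were whole multiples of 0.0123 in replicate 1 and 0.00657 in replicate 2 (100% within 0.05 of a step), but depth in reads is unknown. The shorter lists (50760 and 49230 peaks) were used. The authors' footprint lists carry a deposited score that is the same on every line, so positions alone were used. The authors' deposited q-values (p-values adjusted for false discovery) cover runs of bases below 0.05. Neither the aligner nor the callers are named in these sources.

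Start sites came from basic protein-coding transcripts of GENCODE M21 (41438 gene and site pairs). Near copies were found with blastn 2.17.0. Words of 36 bases were counted over the primary assembly with numba 0.67.0, tested on simulated data. Regions are merged peaks of both shorter lists. The 10 genes, the lists of relatives and the motifs were chosen with earlier results of these data known. Genes named besides them are all near copies, the 3 next by rank, and in each list the 2 highest and those without a peak, of which 1 is not reported here; neighbours that share a peak or region, and the markers named, were added after their values were seen. Alternatives covered the promoter window, the longer lists, other transcript sets, identity, word length, overlap, q threshold and leaving out either replicate.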

Additional observations from a re-analysis of the deposited data

How the results depend on the processing

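No paired analysis was possible because there is 1 group and no test between groups. Ordering genes by the mean of value over the library median kept 6 of the 10 genes among the 10 highest, and leaving out either replicate kept 2 to 4. A percentile among coding promoters alone, chosen after the data were seen, kept 8. With identity of at least 95%, 2 near copies had a peak in both libraries in place of 4, and leaving out either replicate gave 4 to 4. With 24-base words 2 promoter peaks held repeated words in both libraries in place of 1, and leaving out either replicate gave 1 to 2. Footprints ranged from 46 to 51 when either replicate was left out, against 44 shared. The median share of significant bases, 2.49% as the mean of both libraries, was 3.23% at q below 0.05 and 3.73% with 2 kb either side, and 2.11% to 2.87% without either replicate. Shared other regions fell from 15 to 8 at a reciprocal overlap of 50%, and 30 to 41 were open in a single library left alone. Genes of the family lists ranged from 59 to 60, and Dynlt1b stood 2.69 to 2.92 times above Dynlt1a, an alternative also chosen after the data were seen. The choices not named here kept each count within 1.5 times its value, or within 1 SD of the libraries. With 2 libraries of unknown depth, no peak means none at the authors' threshold.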
